A study of Mus musculus with 31 samples.

Results

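Neuropeptide genes were followed in bulk RNA sequencing data of mouse temporo-occipital cortex and of CD11b+ cells isolated from whole brain. The set held *Cck*, *Npy*, *Sst*, *Penk*, *Pdyn*, *Vip*, *Tac1*, *Tac2*, *Crh* and *Cort*. These 10 genes were picked by symbol from the 55401 genes of the count tables, and all 10 were found. The choice was made with the KI effect in male CD11b+ cells in view, so that for this contrast their values are given as a description without a test.

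The study crossed APP/PS1 mice with PLCγ2-P522R knock-in (KI) mice to ask how this variant of the phospholipase acts on amyloid pathology and microglia. All mice were 13 months old and on a C57BL/6J background, and no treatment groups are described for these libraries. The paper also reports PET imaging and behavioural tests, and the labels do not say which of the sequenced mice had them. A+ mice carry 1 transgene with chimeric mouse/human APPswe and human PS1dE9 driven by the mouse prion protein promoter, and A- mice lack it. Pki/ki mice are homozygous for P522R, introduced at the endogenous locus with CRISPR/Cas9, and Pwt/wt mice are not edited. The substitution replaces 1 codon, and gene-level counts cannot check it. Cortex was available from female A-/Pwt/wt (n = 1), A+/Pwt/wt (n = 4) and A+/Pki/ki mice (n = 4). CD11b+ cells were available from female A-/Pwt/wt (n = 7), A+/Pwt/wt (n = 4) and A+/Pki/ki mice (n = 4), and from male A-/Pwt/wt (n = 3) and A-/Pki/ki mice (n = 4). Each library came from 1 mouse and is named here by its mouse number.

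Neuropeptides are made as long precursors that are cut in the secretory pathway, packed into dense-core granules and released to act on G protein-coupled receptors. In the cortex most of them mark classes of GABAergic interneurons: *Sst*, *Npy* and *Cort* somatostatin cells, *Vip* and *Crh* vasoactive intestinal peptide cells, *Tac1* and *Tac2* smaller subsets. *Cck*, the precursor of cholecystokinin, is made by interneurons and by many excitatory cells, and *Penk* and *Pdyn*, the precursors of enkephalins and dynorphins, are known above all from the projection neurons of the striatum, which lies beneath the cortex. Microglia are not known as a main source of any of these peptides.

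*Sst* and *Cort* are related genes whose peptides bind the same receptors, so their sequences are shown to mark where reads could match both. In GRCm38 with Gencode annotation, *Sst* is at chr16:23889573-23890958 and *Cort* at chr4:149125034-149126763, both on the minus strand. The last 42 coding bases of *Sst* before the stop codon, where its receptor-binding peptide is encoded, lie at chr16:23889732-23889773. The 42 *Cort* bases aligned with them lie at chr4:149125270-149125311 and leave out the final *Cort* codon before the stop. They are printed 5′ to 3′ with the bases that both share in capitals.
Sst: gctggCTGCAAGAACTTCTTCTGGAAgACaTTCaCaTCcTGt
Cort: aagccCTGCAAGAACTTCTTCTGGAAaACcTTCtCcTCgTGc
Of the 42 bases, 31 were identical. The longest identical run was 21 bases, also when the whole transcripts of 721 bases (*Sst*) and 677 bases (*Cort*) were compared. Reads of 150 bases are longer than this run.

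The *Sst* promoter is shown because its cAMP response element is the textbook site through which CREB drives a neuropeptide gene. The stretch below is from RefSeq (GRCm38.p6, chr16:23890874-23890903, minus strand), and the capitals mark the element.
Sst promoter: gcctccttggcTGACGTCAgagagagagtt
The 8 letters TGACGTCA, which read the same on both strands, begin 48 bases upstream of the RefSeq start. The Gencode span of the gene reaches further upstream than this start, so that by Gencode the stretch lies inside the gene. They were found in 588 of 32851 promoter windows of 300 bases (1.79%). Of the 8 neuropeptide genes that had such a window, *Sst* was the 1 that held them.

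The other genes lie at chr9:121489824-121495694 (*Cck*, minus strand), chr6:49822710-49829507 (*Npy*, plus), chr4:4133531-4138819 (*Penk*, minus), chr2:129686565-129699844 (*Pdyn*, minus), chr10:5639218-5647617 (*Vip*, plus), chr6:7554879-7565834 (*Tac1*, plus), chr10:127724478-127731768 (*Tac2*, plus) and chr3:19693401-19695396 (*Crh*, minus). Counting ignored strand, and 233 exon bases of *Penk* overlap *A830012C17Rik* on the other strand. Whether reads in this overlap were counted or dropped is not stated.

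The libraries held 25.2 to 43.1 M counts in cortex and 16.2 to 25.1 M counts in CD11b+ cells. The geometric mean of 10 microglia markers was 30.8 to 66.4 CPM (counts scaled to a common library total) in cortex and 796 to 1849 CPM in CD11b+ cells, and that of 16 neuron markers 562 to 618 CPM and 5.32 to 101 CPM. None of these markers was at 0 in any library. The CD11b+ tables of females and males and the cortex table were scaled separately, and levels set across them are descriptive. Mouse number 236 is given for an A+/Pwt/wt cortex library and for an A-/Pwt/wt CD11b+ library. The labels do not say whether 2 mice share the number, and both were used as labelled.

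In cortex, the 10 genes summed to 22561 to 53536 counts per library. Their sum was 1132 ± 141 CPM in A+/Pki/ki (SD, n = 4), 1100 ± 153 CPM in A+/Pwt/wt (SD, n = 4) and 1171 CPM in the A-/Pwt/wt library. *Penk*, *Cck* and *Sst* took most of the reads. The 3 genes made up 30.3 ± 6.61%, 27.7 ± 5.78% and 22.0 ± 1.5% of the counts of the set (SD, n = 9). Per kilobase of exon, which corrects for gene length, *Sst* stood first in A+/Pki/ki mice with 346 ± 35.3 CPM per kb. *Cck* (232 ± 11.5) and *Penk* (219 ± 65) followed and did not differ beyond their spread, and *Npy* came next with 104 ± 6.45 CPM per kb (SD, n = 4 each). *Pdyn* (18.4 CPM per kb) and *Tac1* (17.7) formed a lower pair, *Cort* (9.0) and *Vip* (8.84) the next, and *Tac2* (5.81) and *Crh* (4.43) were lowest. A+/Pwt/wt mice had the same first 6 in the same order, but there *Sst* (335 ± 54.9 CPM per kb) and *Cck* (233 ± 52.7) overlapped within 1 SD.

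**Figure D1:**
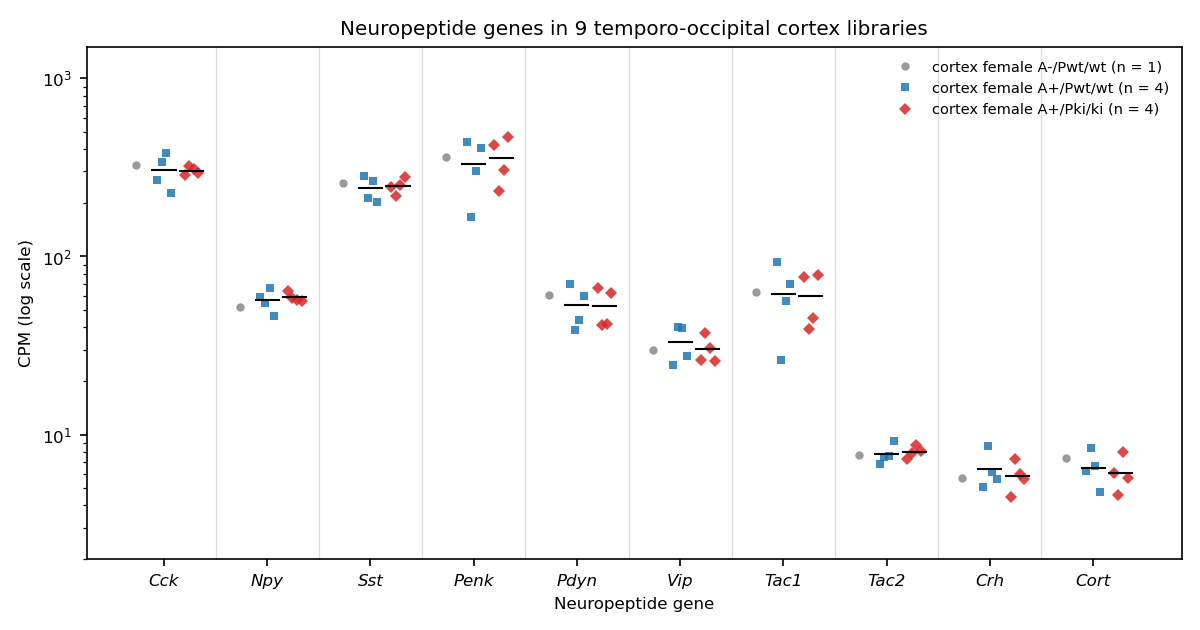
CPM (log axis) of the 10 neuropeptide genes in the 9 cortex libraries, by genotype. Each point is 1 mouse and the black bar the group mean. The A+/Pki/ki and A+/Pwt/wt points overlap for each of the 10 genes, and *Penk* and *Tac1* spread more widely than *Npy* and *Tac2*.

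The comparison of A+/Pki/ki with A+/Pwt/wt cortex asks whether P522R alters neuronal gene expression in the presence of amyloid. None of the 10 neuropeptide genes was called. *Cck* was 286, 320.2, 310.1 and 296 CPM in A+/Pki/ki and 268, 341, 380.4 and 229 CPM in A+/Pwt/wt libraries. The A+/Pki/ki values thus lay inside the A+/Pwt/wt range (log2FC 0.00, SE 0.13). *Sst* was 244, 219, 252 and 281 CPM in A+/Pki/ki and 284, 214, 266 and 202 CPM in A+/Pwt/wt libraries (log2FC 0.05, SE 0.11). *Npy*, which codes for neuropeptide Y, was 64.4, 58.2, 57.0 and 56.4 CPM against 59.2, 54.5, 66.8 and 46.1 CPM (log2FC 0.06, SE 0.10). All 3 genes overlapped between the groups, and the A-/Pwt/wt library was at 325 CPM for *Cck*, 258 CPM for *Sst* and 51.9 CPM for *Npy*.

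The opioid precursors and *Tac1*, the precursor of substance P, varied far more between mice than between genotypes. *Penk* was 423, 234, 308 and 465.9 CPM in A+/Pki/ki and 442, 167, 303 and 407 CPM in A+/Pwt/wt libraries (log2FC 0.12, SE 0.27). *Pdyn* ranged from 41.1 to 66.4 CPM and from 38.5 to 69.8 CPM (log2FC -0.01, SE 0.20), and *Tac1* from 39.4 to 79.1 CPM and from 26.3 to 93.1 CPM (log2FC -0.04, SE 0.31). These differences were small beside their errors and rested on single mice. Without mouse 236, the log2FC of *Penk* was 0.30 and that of *Tac1* 0.24. Without mouse 257, they were -0.10 and -0.29.

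The less abundant interneuron peptides also overlapped between the groups. *Vip* was 30.1 ± 5.24 CPM in A+/Pki/ki and 33.1 ± 8.13 CPM in A+/Pwt/wt mice (log2FC -0.13, SE 0.16). *Crh*, the precursor of corticotropin-releasing hormone, was 5.85 ± 1.14 and 6.39 ± 1.56 CPM (log2FC -0.11, SE 0.18). *Tac2*, the neurokinin B precursor, was 8.0 ± 0.569 and 7.78 ± 1.02 CPM (log2FC 0.04, SE 0.11), and *Cort*, the cortistatin precursor, 6.09 ± 1.44 and 6.53 ± 1.5 CPM (log2FC -0.09, SE 0.19; SD, n = 4 per group for all). With edgeR's quasi-likelihood test, the adjusted p was 0.9997 for each of the 10 genes. Of 18640 genes tested, 0 (0%) were called at FDR 0.05, 514 had an unadjusted p under 0.05, and DESeq2 called 11. The ranges of the groups did not overlap for 1.85% of all genes and for 0 of the 10. Of the 10, 4 had a log2FC above 0, as had 49.3% of all genes. In whole tissue, fewer cells of a type and less RNA per cell cannot be told apart.

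*Penk*, *Tac1* and *Pdyn* varied together over the 9 cortex libraries, along with genes of striatal projection neurons. The geometric mean of 7 such genes (*Ppp1r1b*, *Drd1*, *Drd2*, *Adora2a*, *Rgs9*, *Pde10a* and *Rasd2*) was 56.5 CPM in mouse 257, 90.4 in 203, 113 in 216 and 127 in 259. It was 154 CPM in the A-/Pwt/wt mouse 312, 169.9 in 329, 174 in 184, 176 in 222 and 194 in 236. Both genotypes of A+ mice thus had libraries at either end. *Penk* followed this level with Pearson's r = 0.99 and Spearman's rho = 0.97 (n = 9 libraries), and r = 0.94 without the 2 farthest libraries, 203 and 257 (n = 7). The coefficients were 0.99, 1.0 and 0.98 for *Tac1* and 0.90, 0.97 and 0.97 for *Pdyn*. *Vip* (r = -0.85, rho = -0.95, r = -0.78 without the 2 libraries) and *Crh* (-0.93, -0.90 and -0.68) ran the other way. *Sst* (r = 0.52) lost its relation without the 2 libraries (r = 0.05), *Cck* had r = -0.56, and *Npy* r = 0.01. The pattern also appeared with other neuron gene lists, more weakly once the 2 farthest libraries were left out. The cortical interneuron level varied little, from 44.0 to 54.4 CPM over the 9 libraries. Against cortical interneuron genes r was 0.939 for *Penk*, 0.927 for *Tac1* and 0.832 for *Pdyn* (0.685, 0.698 and 0.733 without the 2 libraries). It was -0.728 for *Vip* and -0.891 for *Crh* (-0.382 and -0.518 without the 2 libraries). Against excitatory neuron genes r was -0.74, -0.721 and -0.695 for *Penk*, *Tac1* and *Pdyn*, and 0.836 and 0.583 for *Vip* and *Crh*. Without the 2 libraries farthest on that list, 222 and 236, these were -0.613, -0.537, -0.513, 0.731 and 0.529. All points share a table, a scaling and the composition of a CPM total, and these coefficients are descriptive.

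**Figure D2:**
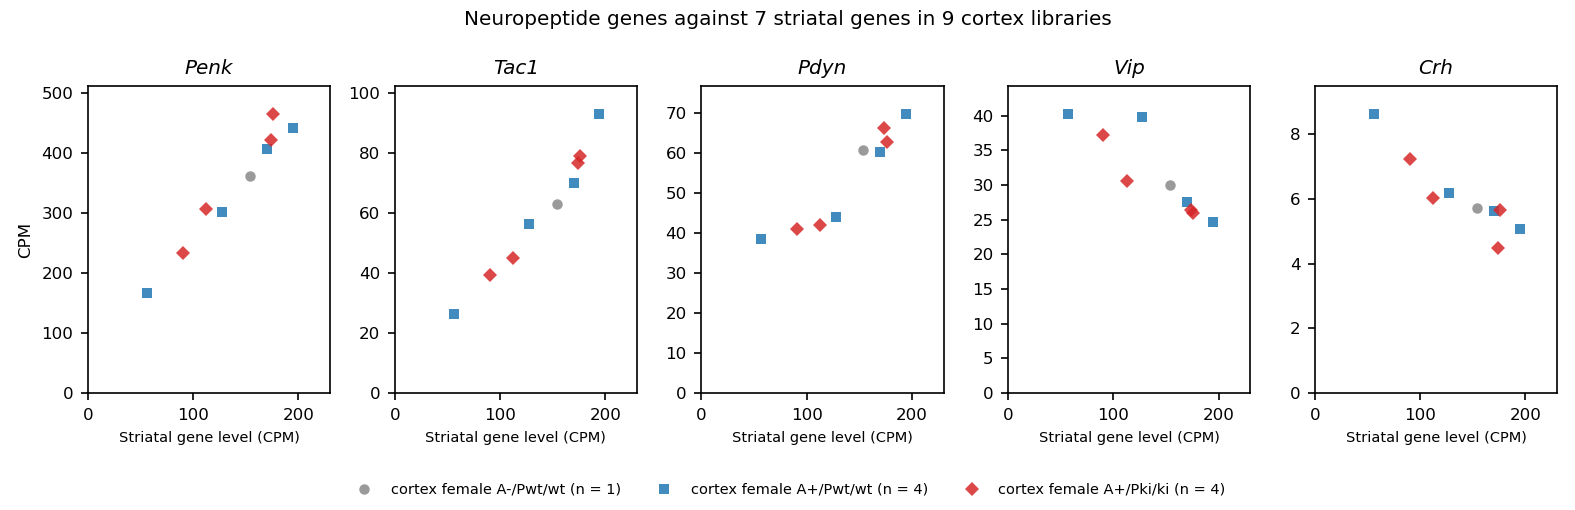
CPM of *Penk*, *Tac1*, *Pdyn*, *Vip* and *Crh* against the geometric mean CPM of 7 striatal projection neuron genes in the 9 cortex libraries (linear axes from 0; points coloured by genotype). *Penk*, *Tac1* and *Pdyn* climb from mouse 257 (56.5 CPM on the horizontal axis) to mouse 236 (194 CPM), and *Vip* and *Crh* decline.

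The single gene *Ppp1r1b*, which codes for the dopamine-regulated phosphatase inhibitor DARPP-32, showed the same order at its ends. It was 188 CPM in mouse 257 and 305 CPM in mouse 203, the lowest of the 9, and 690 CPM in mouse 236, the highest. Over the 9 libraries the pairwise r was 0.98 for *Penk* with *Tac1*, 0.92 for *Pdyn* with *Tac1*, and -0.89 for *Penk* with *Vip*. Among the 11827 genes that averaged 5 CPM or more, those most like *Penk* in their log2 CPM were *Kazn* (r = 0.99), *Adora2a* (r = 0.99), an adenosine receptor also in the striatal list, and *Necab2* (r = 0.99). For *Sst* they were *Mtch1* (0.98), *Gnb2* (0.97) and *Zfp688* (0.97), for *Cck* *Atp6v0d1* (0.96), *Ldha* (0.95) and *Trpc4ap* (0.95), and for *Npy* *Mettl23*, *Coa3* and *Eef1g* (0.96 each). The part of tissue composition in the spread of these genes was not tested.

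The receptors and the machinery around the peptides gave no calls in cortex either. Among 22 receptor genes, 21 passed the filter and 0 were called, with a median log2FC of -0.03 beside 0.00 over all genes. *Adcyap1r1*, the PACAP receptor, was 189 ± 25.1 CPM in A+/Pki/ki and 183 ± 20.5 CPM in A+/Pwt/wt mice. *Cckbr*, the main cholecystokinin receptor of the brain, was 57.5 ± 6.29 and 60.8 ± 6.93 CPM, and *Npy1r* 25.8 ± 1.94 and 27.9 ± 4.67 CPM (SD, n = 4). The receptors for somatostatin and cortistatin, *Sstr1* to *Sstr5*, had group means between 1.48 and 25.8 CPM and overlapped between the groups. So did the opioid receptors *Oprd1*, *Oprk1* and *Oprm1* (1.08 to 15.7 CPM), *Vipr1* and *Vipr2* (0.877 to 19.7 CPM), the tachykinin receptors *Tacr1* to *Tacr3* (0.407 to 12.8 CPM), and *Crhr1* and *Crhr2* (2.31 to 19.2 CPM).

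Genes that process peptides and build granules were abundant, with 0 calls. *Cpe*, the carboxypeptidase that trims peptide precursors, was 2271 ± 51.6 CPM in A+/Pki/ki and 2199 ± 266 CPM in A+/Pwt/wt cortex, and *Pcsk1n*, an inhibitor of the prohormone convertase PC1, 904 and 970 CPM. *Ptprn*, a granule membrane protein, was 522 ± 18.0 and 560.0 ± 9.81 CPM (SD, n = 4), the 1 gene of these 16 whose groups did not overlap (log2FC -0.10), and it was not called. A median log2FC of -0.02 was found over the 16 genes, of 0.01 over 11 genes of peptide degradation and binding (*Lnpep*, *Ide* and *Ece1* the most abundant), and of 0.12 over the 20 tested of 28 other neuropeptide genes, all with 0 calls. Of the latter, *Apln* was 26.7 ± 4.04 against 23.3 ± 2.98 CPM, and *Adcyap1* 12.4 ± 1.57 against 11.3 ± 0.999 CPM. *Avp*, the vasopressin precursor and a hypothalamic gene, had the widest gap, 1.25 ± 1.07 against 6.61 ± 6.8 CPM (log2FC -2.41, SE 0.79, not called). It rested on 2 A+/Pwt/wt libraries, 236 with 15 CPM and 329 with 9.25 CPM, and was chosen for mention after its values were seen.

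In CD11b+ cells the 10 genes summed to 107 to 1528 counts per library, and every library held reads of *Cck*, *Npy*, *Sst*, *Penk* and *Pdyn*. The sum ranged from 6.99 to 98.5 CPM in the 7 female A-/Pwt/wt libraries (median 28.8 CPM). It was 29.3 ± 8.54 CPM in female A+/Pwt/wt (SD, n = 4) and 21.2 ± 25.5 CPM in female A+/Pki/ki mice (SD, n = 4), of which mouse 335 alone reached 59.2 CPM. In males it was 6.52 ± 0.574 CPM in A-/Pwt/wt (SD, n = 3) and 29.4 ± 10.47 CPM in A-/Pki/ki mice (SD, n = 4). The lowest and the highest female A-/Pwt/wt libraries, which share 1 genotype, were thus further apart than any 2 group means.

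*Cck* was the first or second gene per kb in every CD11b+ group. It was 11.1 ± 3.41 CPM per kb in female A+/Pwt/wt mice, followed by *Sst* with 8.13 ± 2.91 and *Npy* with 5.37 ± 2.35, neighbours not separated beyond their spread (SD, n = 4). *Penk* with 1.66 ± 0.808 CPM per kb was below *Npy* beyond that spread. In male A-/Pwt/wt mice *Sst* (2.48 ± 0.383 CPM per kb) stood above *Cck* (1.51 ± 0.431; SD, n = 3). *Pdyn* had 7 to 47 counts in each of the 22 libraries and *Cort* 0 to 32. *Vip*, *Tac1*, *Tac2* and *Crh* had at most 21 counts. *Vip* was at 0 in 3 of the 22 libraries. *Crh* was at 0 in all 3 male A-/Pwt/wt libraries, in 1 female A-/Pwt/wt library and in 2 female A+/Pwt/wt libraries. A count of 0 allows up to 3 counts, which is 0.113 to 0.194 CPM in these libraries.

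**Figure D3:**
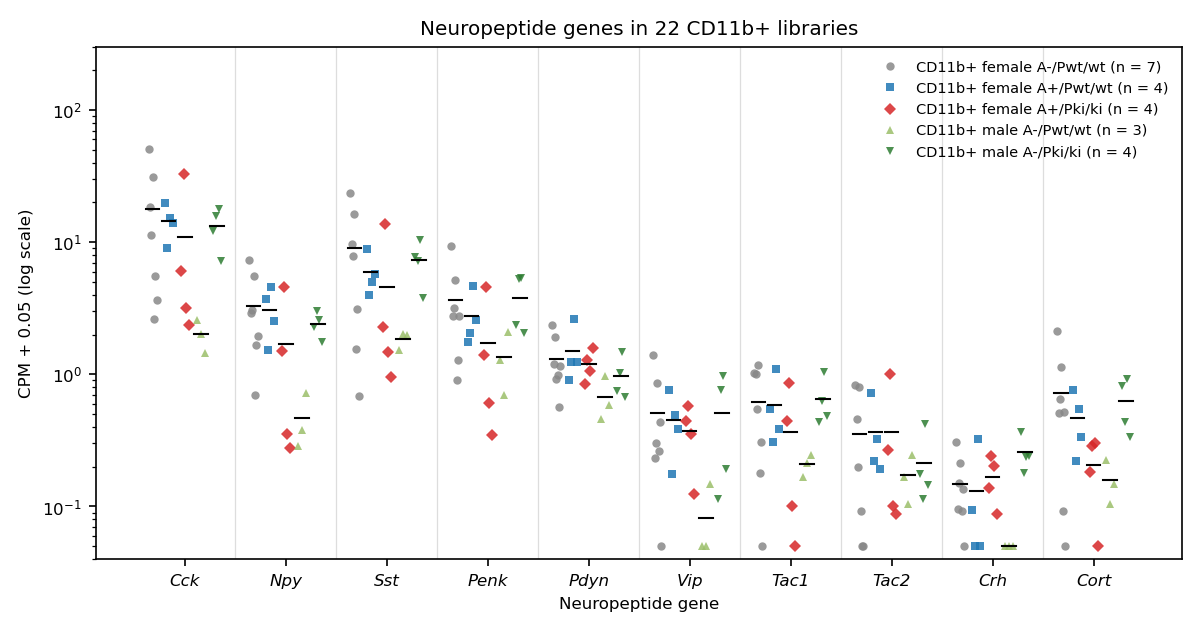
CPM + 0.05 (log axis) of the 10 neuropeptide genes in the 22 CD11b+ libraries, by sex and genotype. Each point is 1 mouse. Values for *Cck* run from 1.41 CPM (male A-/Pwt/wt) to 50.6 CPM (female A-/Pwt/wt), and those for *Crh* do not exceed 0.319 CPM.

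The make-up of the set differed between cells and tissue. *Cck* took 43.7 ± 7.89% of its counts in CD11b+ libraries (SD, n = 22) and 27.7 ± 5.78% in cortex (SD, n = 9). *Penk* took 11.9 ± 6.08% and 30.3 ± 6.61%, *Tac1* 1.75 ± 0.865% and 5.32 ± 1.44%, and *Sst* 22.4 ± 5.43% and 22.0 ± 1.5%. *Vip* (1.43 ± 1.13% and 2.87 ± 0.858%) and *Crh* (0.462 ± 0.519% and 0.558 ± 0.184%) also had the smaller mean share in CD11b+ libraries, and *Npy* (8.85 ± 3.4% and 5.14 ± 0.685%), *Pdyn* (7.04 ± 6.25% and 4.77 ± 0.748%), *Tac2* (0.936 ± 0.657% and 0.712 ± 0.12%) and *Cort* (1.57 ± 1.0% and 0.583 ± 0.164%) the larger one. Counts of *Penk* per count of *Cck* were 1.18 ± 0.46 in cortex and 0.314 ± 0.29 in CD11b+ libraries. The ratio of *Cck* to *Snap25*, a synaptic gene of all neurons, was 0.117 ± 0.0139 and 0.113 ± 0.03. That of *Sst* to *Gad1*, which marks GABAergic neurons, was 0.659 ± 0.086 and 0.735 ± 0.284, and that of *Tac1* to *Penk* 0.174 ± 0.0181 and 0.166 ± 0.0883. Against *Ppp1r1b*, a marker of striatal projection neurons, *Penk* was 0.762 ± 0.0717 in cortex and 0.0925 ± 0.0477 in CD11b+ libraries, with no overlap between single libraries (0.64 to 0.884 and 0.0195 to 0.214). *Ppp1r1b* did not keep step with *Snap25* in CD11b+ libraries. It was 40.9 CPM beside 20.0 CPM of *Snap25* in male mouse 94, and 43.8 beside 315 CPM in female mouse 223. In cortex mouse 312 it was 511 beside 2585 CPM. Whether *Ppp1r1b* has a source other than neurons in CD11b+ libraries was not tested. *Pdyn* stood apart, with 0.162 ± 0.0294 counts per count of *Penk* in cortex and 0.743 ± 1.06 (0.17 to 5.12) in CD11b+ libraries. CD11b+ cells came from whole brain and cortex from 1 region, so cell isolation and region cannot be told apart here.

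**Figure D4:**
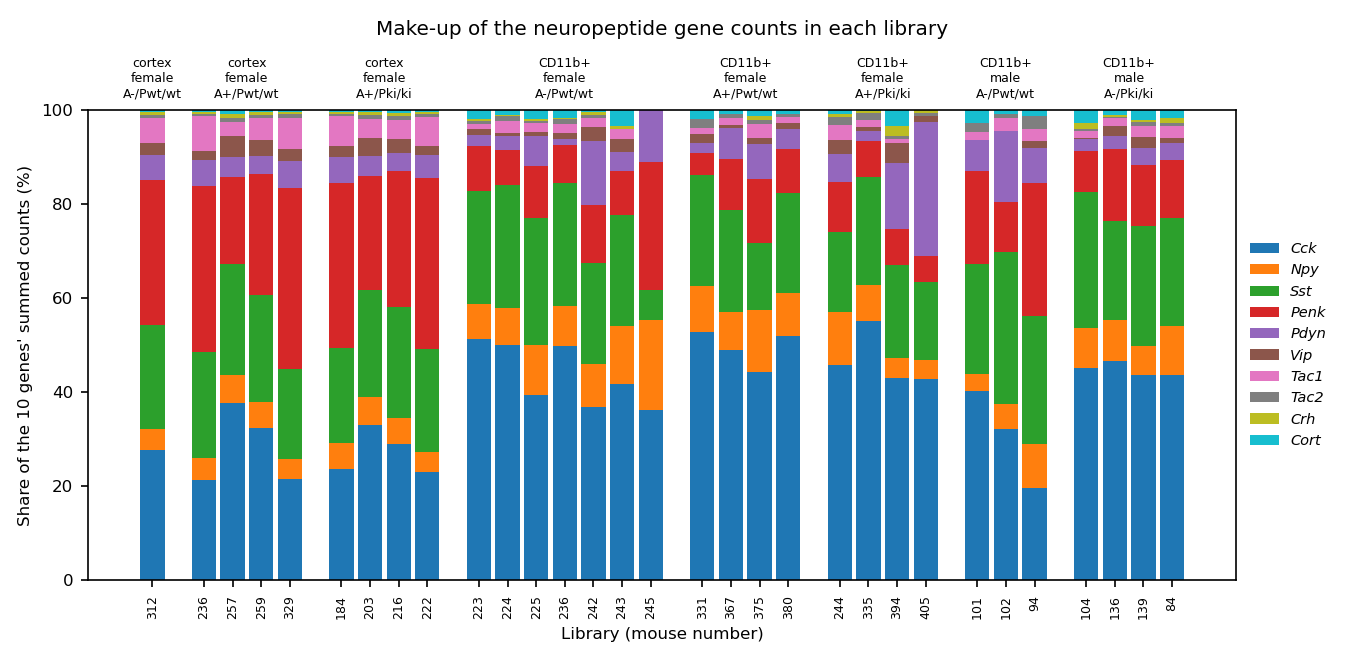
Share of each neuropeptide gene in the counts of the set of 10 (stacked to 100%), for 9 cortex and 22 CD11b+ libraries. On average *Penk* has 30.3% in cortex and 11.9% in CD11b+ libraries, *Cck* 27.7% and 43.7%, and *Sst* 22.0% and 22.4%. Single libraries depart from these orders. *Cck* has 37.6% and *Penk* 18.4% in cortex mouse 257, and *Cck* 19.6% and *Penk* 28.4% in CD11b+ mouse 94.

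Within the CD11b+ libraries of females, *Cck* moved with the levels of neuron and of astrocyte markers. Against the geometric mean of 16 neuron markers, log2 CPM of *Cck* had r = 0.97 and rho = 0.99 (n = 15 libraries), and r = 0.98 without the 2 farthest, 394 and 405 (n = 13). Within the batch tag b2, which holds all 8 A+ libraries, r was 0.99, and within b3, which holds all 7 A-/Pwt/wt libraries, 0.98. *Npy* (r = 0.97), *Penk* (0.92) and *Sst* (0.92) behaved alike, with 0.99, 0.94 and 0.97 within b2 and 0.94, 0.90 and 0.91 within b3. The slope of log2 on log2 was 1.16 for *Cck*, 1.15 for *Npy*, 1.21 for *Sst* and 0.99 for *Penk*. The less abundant *Tac1* (r = 0.87), *Tac2* (0.81), *Cort* (0.80) and *Vip* (0.68) were looser, and *Crh* (0.41) has few counts. Against 10 astrocyte markers the coefficients in the same libraries were r = 0.93 for *Cck*, 0.95 for *Npy*, 0.88 for *Sst*, 0.86 for *Penk*, 0.87 for *Tac1* and 0.84 for *Tac2*.

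*Pdyn* did not follow the neuron level (r = 0.27, rho = 0.25, slope 0.14, r = 0.46 without the 2 farthest). Within b2 its r was 0.11 and within b3 0.50. Mouse 405, the A+/Pki/ki library with the lowest neuron marker level (5.32 CPM), had 2.33 CPM of *Cck* and 0.3 CPM of *Penk*, but 1.54 CPM of *Pdyn*. Mouse 335, with a neuron marker level of 52.3 CPM, had 32.6 CPM of *Cck*, 4.51 CPM of *Penk* and 1.23 CPM of *Pdyn*. *Pdyn* was thus about level between libraries that differed widely in *Cck*. In the same 15 libraries *Cck* ran against the microglia marker level (r = -0.78), as did *Sst* (r = -0.69). All coefficients share libraries and CPM totals and are descriptive.

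**Figure D5:**
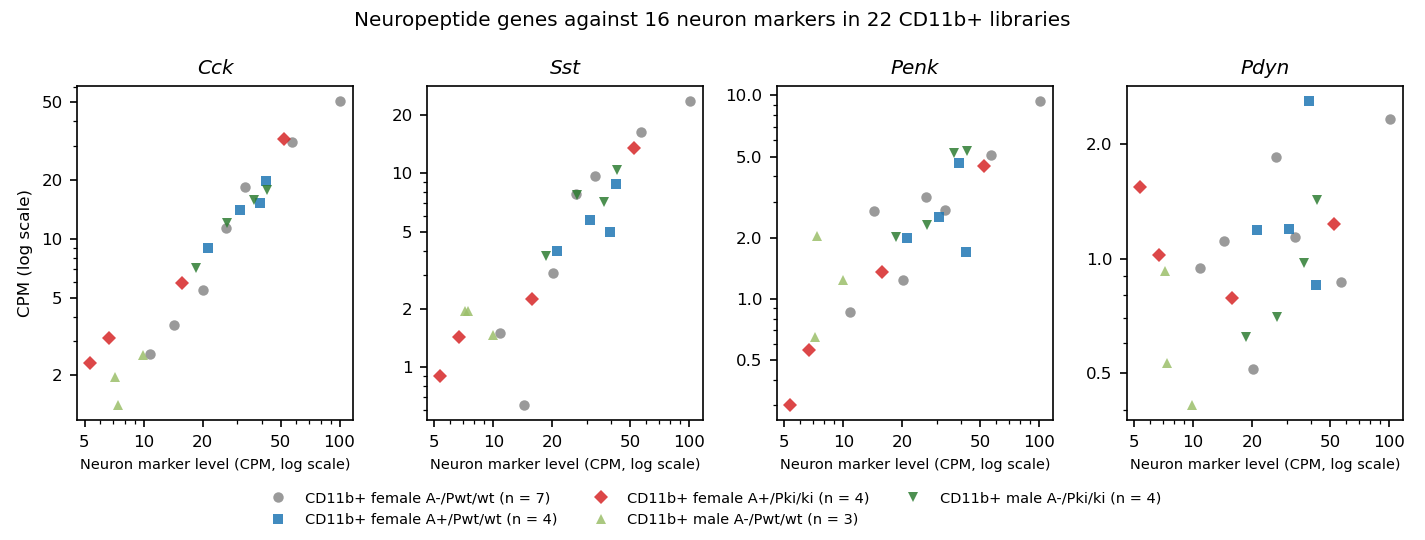
CPM of *Cck*, *Sst*, *Penk* and *Pdyn* against the geometric mean CPM of 16 neuron markers in the 22 CD11b+ libraries (both axes log; points by sex and genotype). *Cck*, *Sst* and *Penk* climb along the marker level, and *Pdyn* stays between 0.412 and 2.59 CPM over a marker range of 5.32 to 101 CPM.

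The genes most like *Cck* over the 15 female libraries, among the 11291 genes that averaged 5 CPM or more there, were *Arpp21* (r = 0.99), a phosphoprotein of forebrain neurons, *Gng13* (0.99) and the mitochondrial *mt-Nd6* (0.99). For *Sst* they were *Extl1*, *Syngr3* and *Itpka* (0.98 each), for *Npy* *Ndn*, *Msi1* (0.99 each) and *Phyhip* (0.98), and for *Penk* *Scg2* (0.96), a granule protein, *Hs3st4* (0.95) and *Grin1* (0.95), an NMDA receptor subunit. Between members, r was 0.96 for *Cck* with *Sst* and 0.95 for *Npy* with *Penk*.

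The comparison of A+/Pki/ki with A+/Pwt/wt CD11b+ cells addresses the effect of P522R on isolated microglia of APP/PS1 females. *Cck* was 5.97, 32.6, 3.11 and 2.33 CPM in A+/Pki/ki mice 244, 335, 394 and 405, and 19.8, 8.94, 15.3 and 14.04 CPM in A+/Pwt/wt mice 331, 367, 375 and 380. The 3 other A+/Pki/ki libraries were below and mouse 335 above every A+/Pwt/wt library, so that the groups overlapped (log2FC -0.44, SE 0.80, adjusted p = 0.879, edgeR). *Sst* was 2.24, 13.6, 1.43 and 0.9 CPM against 8.81, 3.96, 4.96 and 5.73 CPM, with the same arrangement (log2FC -0.41, SE 0.82, adjusted p = 0.885, edgeR). *Npy* (log2FC -0.94, SE 0.87), *Penk* (-0.73, SE 0.78), *Tac1* (-0.80, SE 0.99) and *Pdyn* (-0.40, SE 0.40) had an adjusted p of 0.853 each in edgeR.

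The 6 genes that passed the filter were not called. With edgeR 0 of 17039 genes (0%) were called, with 575 at an unadjusted p under 0.05, and 7 were called by DESeq2. The groups did not overlap for 2.81% of all genes and for none of the 10 neuropeptide genes. The log2FC was above 0 for 50.7% of all genes and for 0 of the 6. Single libraries moved the difference in both directions. Without mouse 335, the log2FC was -1.98 for *Cck* (adjusted p = 0.0754, edgeR), -1.9986 for *Sst* (0.0754), -2.25 for *Npy* (0.115), -1.92 for *Penk* (0.113) and -0.42 for *Pdyn* (0.54), none of them called. In the fit without mouse 335, 4594 of 16825 genes had an unadjusted p under 0.05, and 0.0754 was the lowest adjusted p of any gene (edgeR). The log2FC of *Cck* shrank to -0.10 without mouse 405, -0.13 without 394, -0.23 without 244 and -0.24 without 331, and that of *Sst* to -0.06, -0.11, -0.18 and -0.13. That of *Npy* was -0.56 without 405 and -0.595 without 394, that of *Penk* -0.37 without 405, -0.44 without 394 and -0.34 without 375, and that of *Tac1* -0.36 without 405 and -0.46 without 394.

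Markers of other cells lay in the same direction. The neuron marker level was 15.8, 52.3, 6.68 and 5.32 CPM in the A+/Pki/ki and 21.2 to 42.3 CPM in the A+/Pwt/wt libraries, the oligodendrocyte level 45.4 to 322 and 110.4 to 237 CPM, and the astrocyte level 28.1 to 137 and 74.1 to 174 CPM. All 16 neuron markers (median log2FC -0.82), 10 astrocyte markers (-0.67), 9 oligodendrocyte markers (-0.29) and 16 granule genes (-0.58) had a log2FC below 0, all 10 microglia markers (0.22) one above 0, and 0 of them were called. Relative to the neuron markers, the mean log2 difference between the genotypes was 0.13 for *Cck*, 0.17 for *Sst*, -0.35 for *Npy*, 0.06 for *Penk* and 1.05 for *Pdyn*. The SDs in A+/Pki/ki and A+/Pwt/wt mice were 0.29 and 0.12 for *Cck*, 0.37 and 0.31 for *Sst*, and 0.47 and 0.29 for *Npy*. They were 0.22 and 0.66 for *Penk* and 1.61 and 0.74 for *Pdyn* (n = 4 each). Other receptor genes (9 tested, median -0.64), degradation genes (9 tested, -0.20) and neuropeptide genes (8 tested, -0.19) had 0 calls. The part of carried-over neuronal RNA in these values was not tested.

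The comparison of A+/Pwt/wt with A-/Pwt/wt CD11b+ cells asks what the transgenes change without the KI. It uses the same A+/Pwt/wt libraries as the KI comparison, and the batch tag (b2 for A+, b3 for A-) cannot be told apart from the transgene. *Cck* was 19.8, 8.94, 15.3 and 14.04 CPM in A+/Pwt/wt mice and ranged from 2.57 to 50.6 CPM (median 11.4) in the 7 A-/Pwt/wt mice. *Sst* was 3.96 to 8.81 CPM against 0.635 to 23.6 CPM (median 7.80), and *Npy* 1.49 to 4.52 CPM against 0.643 to 7.22 CPM (median 2.87). The A+/Pwt/wt values of all 3 fell inside the range of the A-/Pwt/wt mice. The log2FC was -0.25 for *Cck* (SE 0.68), -0.58 for *Sst* (SE 0.74), -0.07 for *Npy* (SE 0.53), -0.37 for *Penk* (SE 0.56) and 0.24 for *Pdyn* (SE 0.44). For *Vip*, *Tac1*, *Tac2* and *Cort* it lay between -0.63 and 0.13. The adjusted p of the 9 genes tested was 0.932 to 0.998 in edgeR, with 0 called beside 224 of 17355 genes (1.29%). None of the 10 had groups that did not overlap, against 3.35% of all genes, and 2 of the 9 had a log2FC above 0, against 44.6%. Mouse 223 carried the sign of *Cck*, whose log2FC was 0.26 without it.

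Among the receptors, *Vipr1* fell in A+/Pwt/wt CD11b+ cells. *Vipr1* codes for the VPAC1 receptor of vasoactive intestinal peptide and PACAP, which many immune cells carry. It was 7.87, 7.40, 11.7 and 13.1 CPM in A+/Pwt/wt mice 331, 367, 375 and 380, and 16.7 to 21.7 CPM in the 7 A-/Pwt/wt mice. The groups did not overlap, with means of 10.02 ± 2.82 and 18.4 ± 1.75 CPM (log2FC -0.86, SE 0.17, adjusted p = 0.0316, edgeR). The call depended on the scaling and on single libraries. With total counts only the adjusted p was 0.0767, with DESeq2 2.4e-04, and 4 of the 11 fits that left out 1 library called it (adjusted p = 0.0203 to 0.126). In A+/Pki/ki CD11b+ cells *Vipr1* was 12.3 ± 3.79 CPM (SD, n = 4; log2FC 0.23 against A+/Pwt/wt, not called). Its ligand gene *Vip* was 0.405 ± 0.245 CPM in A+/Pwt/wt and 0.457 ± 0.469 CPM in A-/Pwt/wt CD11b+ cells. Of the 11 receptor genes tested, *Vipr1* was the 1 called lower, beside 0.282% of all genes, and 9 had a log2FC below 0 (median -0.28). The granule genes (16 tested, median -0.17), degradation genes (10 tested, -0.03) and other neuropeptide genes (12 tested, -0.32) had 0 calls beside a median of -0.03 over all genes. The neuron marker level was 21.2 to 42.3 CPM in A+/Pwt/wt and 10.8 to 101 CPM in A-/Pwt/wt libraries.

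The male CD11b+ contrast of A-/Pki/ki with A-/Pwt/wt mice is the one known when the genes were chosen, and nothing is read from its counts. *Cck* was 7.12, 12.1, 15.8 and 17.8 CPM in A-/Pki/ki mice 84, 104, 136 and 139, and 1.41, 2.53 and 1.959 CPM in A-/Pwt/wt mice 94, 101 and 102 (log2FC 2.75, SE 0.35). *Sst* was 3.73, 7.72, 7.12 and 10.4 CPM against 1.94, 1.47 and 1.959 CPM (log2FC 2.00, SE 0.35). *Npy* was 1.72, 2.23, 2.98 and 2.54 CPM against 0.679, 0.235 and 0.326 CPM (log2FC 2.46, SE 0.41). For these 3 genes every A-/Pki/ki library was above every A-/Pwt/wt library.

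The opioid precursors overlapped between the groups. *Penk* was 2.01, 2.30, 5.18 and 5.33 CPM against 2.04, 1.24 and 0.653 CPM (log2FC 1.48, SE 0.49), and *Pdyn* 0.622, 0.702, 0.971 and 1.43 CPM against 0.533, 0.412 and 0.925 CPM (log2FC 0.56, SE 0.44). The other 5 genes did not pass the filter. Of these *Tac1* (6 to 16 counts against 2 to 4), *Cort* (6 to 14 against 1 to 3) and *Crh* did not overlap, at counts near the floor. *Crh* had 14 counts over the 4 A-/Pki/ki libraries (2 to 5 in each) and 0 over the 3 A-/Pwt/wt libraries. By the floor of 3 counts, 0 allows up to 0.176 CPM in A-/Pwt/wt mouse 101, above the 0.129 CPM of A-/Pki/ki mouse 136. Across the 16373 genes that passed the filter, 16.4% were called and 49.8% had a log2FC above 0. The groups did not overlap for 30.8% of them, with A-/Pki/ki higher for 15.4%. These shares do not cover the 5 genes below the filter. Calls split into 1824 higher and 861 lower, and with total counts only into 1582 and 1590, where the median log2FC of all genes was -0.12 in place of 0.00.

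In these males the whole neuron signal differed with the genotype label. The neuron marker level was 26.7, 36.7, 42.8 and 18.6 CPM in A-/Pki/ki mice 104, 136, 139 and 84, and 9.91, 7.17 and 7.37 CPM in A-/Pwt/wt mice 101, 102 and 94. All 16 neuron markers were higher without overlap (median log2FC 2.04), and the median was 2.19 for excitatory, 1.95 for interneuron and 1.03 for striatal genes. Astrocyte (median 1.14; level 74.3 to 137.5 against 44.5 to 56.6 CPM), oligodendrocyte (1.09; 110.1 to 211 against 74.7 to 91.8 CPM) and endothelial markers (0.81) lay the same way, and 10 of 10 microglia markers lay below 0 (median -0.36). The granule genes were all above 0 (16 of 16, median 1.74), among them *Cpe* with 785 against 249.6 CPM and *Pcsk1n* with 582 against 125 CPM. Relative to the neuron markers of the same library, the mean log2 difference was 0.79 for *Cck*, 0.59 for *Npy*, 0.03 for *Sst*, -0.42 for *Penk* and -1.34 for *Pdyn*. The SDs in A-/Pki/ki (n = 4) and A-/Pwt/wt mice (n = 3) were 0.10 and 0.27 for *Cck* and 0.28 and 0.89 for *Npy*. They were 0.265 and 0.49 for *Sst*, 0.30 and 0.79 for *Penk*, and 0.19 and 0.77 for *Pdyn*. The part of neuronal RNA carried over in the isolation in this contrast was not tested, and all 7 male libraries have the batch tag b1.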

How the data were processed

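Counts per gene were deposited for 31 libraries in 3 tables. The authors trimmed 150-base paired reads (Trimmomatic 0.39), aligned them with STAR 2.7.9a to GRCm38 with Gencode M25, and counted uniquely mapped primary alignments irrespective of strand with featureCounts (2.12.0 in the submitters' processing notes). Alongside, the authors deposited a log2-like table of variance-stabilized values, which served only for limma. Columns were matched to samples through the sample descriptions, which name the column (0 unmatched). Mouse number and group came from the sample titles.

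A gene was tested where 3 or more fitted libraries held 10 or more counts. Testing used the quasi-likelihood F test in edgeR 4.0.16 (two-sided, R 4.3.3, TMM scaling, Benjamini-Hochberg adjustment over all genes tested, FDR 0.05), each comparison on its own groups. CPM used TMM scaling within each table. A marker level is the geometric mean of CPM + 0.05. Each SE follows from the log2FC and its F value. Lengths and loci came from Gencode M21 of GRCm38, which matched 54349 of 55401 IDs. Likeness used log2 CPM with a prior count of 2.

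Alternatives were DESeq2 size factors, total counts only, no low-count filter, filterByExpr, the Wald test of DESeq2 1.42.0, limma 3.58.1, all groups in 1 fit, and leaving out each library. Named were the 10 genes, called genes and the 3 most abundant genes of each list, receptors of the peptides that passed the filter, and the 3 genes most like *Cck*, *Npy*, *Sst* and *Penk*. The genes, lists and tests were chosen with earlier results of these data known. Each library is 1 mouse. Floors cover counting error only. Proteomic and human data were not used here. A gene of the striatal list is not reported here and was left out of it.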

Additional observations from a re-analysis of the deposited data

Results flagged for a closer look

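In groups of 4 to 10 libraries, 60 sets of 1 gene in 1 group were checked for a library far from the others, and 3 were found. Chance gives about 1 in 20. *Cck* with 32.6 CPM and *Sst* with 13.6 CPM in the female A+/Pki/ki CD11b+ library of mouse 335 were 2 of them. The next highest A+/Pki/ki library, mouse 244, had 5.97 and 2.24 CPM. Mouse 335 also had the highest neuron marker level of its group, 52.3 CPM against 5.32 to 15.8 CPM. The other was *Crh* with 0.275 CPM in the female A+/Pwt/wt CD11b+ library of mouse 375, which rests on 5 counts.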

How the results depend on the processing

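No neuropeptide gene was called in a tested comparison under any scaling, filter, tool or left-out library. Over all genes, no low-count filter gave 40 calls and DESeq2 11 in the KI comparison of cortex (0 with edgeR), DESeq2 7 in that of female CD11b+ cells (0), and total counts only 129 and DESeq2 636 in that of A+/Pwt/wt with A-/Pwt/wt cells (224). Leaving out 1 library gave 0 to 2, 0 to 1 and 91 to 497 calls (497 without mouse 223, 91 without 380, 95 without 367, 97 without 375), and 894 to 5439 in males (2685 with all; 5439 without 104, 894 without 102, 1111 without 94, 1236 without 101, 1353 without 139, 1771 without 136). With total counts only, males had 1582 higher and 1590 lower calls, against 1824 and 861. The following signs turned, and the cause was not tested. In cortex, limma gave a log2FC of 0.004 for *Pdyn*, 0.03 for *Tac1* and 0.023 for *Cck*, and no filter 0.002 for *Cck*. For A+/Pwt/wt with A-/Pwt/wt cells, limma gave 0.077 for *Tac1*, 0.05 for *Npy*, 0.258 for *Cck* and 0.054 for *Vip*. Without 1 library, the cortex log2FC ranged from -0.134 to 0.155 (*Pdyn*), -0.228 to 0.06 (*Crh*), -0.102 to 0.296 (*Penk*), -0.253 to 0.055 (*Cort*), -0.287 to 0.239 (*Tac1*), -0.028 to 0.151 (*Npy*), -0.119 to 0.124 (*Cck*), -0.014 to 0.139 (*Tac2*) and -0.031 to 0.137 (*Sst*), that of *Pdyn* in the KI comparison of female CD11b+ cells from -0.582 to 0.034, and those for A+/Pwt/wt with A-/Pwt/wt cells from -0.199 to 0.44 (*Pdyn*), -0.774 to 0.05 (*Penk*), -0.611 to 0.2 (*Tac1*), -0.337 to 0.24 (*Npy*), -0.462 to 0.264 (*Cck*), -0.328 to 0.186 (*Vip*) and -0.103 to 0.346 (*Tac2*). The summed CPM of the A-/Pwt/wt cortex library was 1155 from total counts (1171 with TMM). Relative to the excitatory list, *Cck* differed by -0.211 between female A+/Pki/ki and A+/Pwt/wt cells, against 0.127 relative to the neuron markers. In males limma gave 1.80 for *Cck*, 1.19 for *Sst*, 0.97 for *Npy* and 0.76 for *Penk*. No paired analysis was possible because the groups compared share no mouse numbers. With few counts per library, changes in *Vip*, *Tac1*, *Tac2*, *Crh* and *Cort* of CD11b+ cells were not detectable at this depth unless large.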
